A study of Mus musculus with 8 samples.

Results

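The genes whose proteins make, destroy and read cyclic AMP are described here in islets of mice on a high fat diet. Every probe set annotated to a single gene was taken if the symbol was Adcy or Pde followed by a digit, or began with Prkar or Prkac. Rapgef3, Rapgef4, Creb1, Crem and Atf1 were added by name. This gave 122 of the 45101 probe sets on the array, for 44 of the 18194 genes that have a probe set of their own. The rule used no measured value.

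Male C57BL/6J (BL6J) mice, a strain with a natural deletion in Nnt, were put on HF (45 kcal% fat) or kept on NC (4 kcal% fat) from 4 weeks of age. They ate it for 14 weeks by the methods, whereas the sample labels give 12. There were 4 HF samples (replicates 21, 22, 23 and 24) and 4 NC samples (replicates 1, 2, 4 and 5), and each sample was RNA from the islets of 2 mice combined. The islets were released with collagenase, passed over Ficoll and picked by hand, and each RNA was hybridised to a mouse expression array of short oligonucleotide probes. Values are the authors' GCRMA intensities, a linear scale with no unit on which probe sets cannot be set against one another.

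Adenylyl cyclases turn ATP into cAMP. Those of the membrane do so when the G protein Gs is active, and some of them are held back by Gi. Phosphodiesterases break down cAMP, cGMP or both. The cAMP in between releases the catalytic subunits of protein kinase A (PKA) from the regulatory subunits, and it also activates the exchange factors Rapgef3 (Epac1) and Rapgef4 (Epac2). PKA phosphorylates the transcription factors Creb1, Crem and Atf1. In β cells, cAMP raised by GLP-1 and GIP augments the insulin secretion that glucose sets off.

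As many probe sets as the methods retained were kept here, by the third highest of their intensities over the 8 samples, the lowest of which was 8.82. Since 3 samples were enough, a probe set could pass through 1 diet alone. Of the 122 members, 76 passed, for 31 genes. The 46 others lay between 2.83 and 12.1 in single samples. For 13 genes no probe set passed, and none of their values exceeded 8.12. These were the cyclases Adcy1, Adcy8 and Adcy10 and the phosphodiesterases Pde1a, Pde1b, Pde3a, Pde4a, Pde6a, Pde6b, Pde6c, Pde6g, Pde9a and Pde11a. Rapgef4 and Atf1 were not analysed here, since no probe set was annotated to Rapgef4 and the 1 that named Atf1 also named a pseudogene. Thus of the genes that stand for the system, Adcy5, Pde3b and Prkaca were measured.

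HF and NC were compared with limma on log2 intensities, with Benjamini-Hochberg adjustment over all retained probe sets. A probe set is called higher or lower in HF here if its adjusted p was under 0.05 and its intensities differed 1.5-fold or more. The cyclase Adcy7 and the phosphodiesterase Pde2a fell in HF on both of their retained probe sets. Pde4dip, which encodes a scaffold protein and no phosphodiesterase, rose on 1 of 4. The other 71 retained probe sets were not called. Thus 1 member (1.32%) was called higher and 4 (5.26%) were called lower, beside 0.644% higher and 3.06% lower among all retained probe sets. With each gene represented by its brightest retained probe set, no member was called higher and 2 of 31 (6.45%) were called lower, beside 0.447% higher and 4.28% lower among all genes measured. The second count fell to 1 when any 1 sample other than HF replicate 22 was left out, since the brightest probe set of Pde2a only just passed. The members' median log2 fold change was −0.02, and that of all retained probe sets was 0.02. The counts of members are small, and these shares are given as description only.

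**Figure D1:**
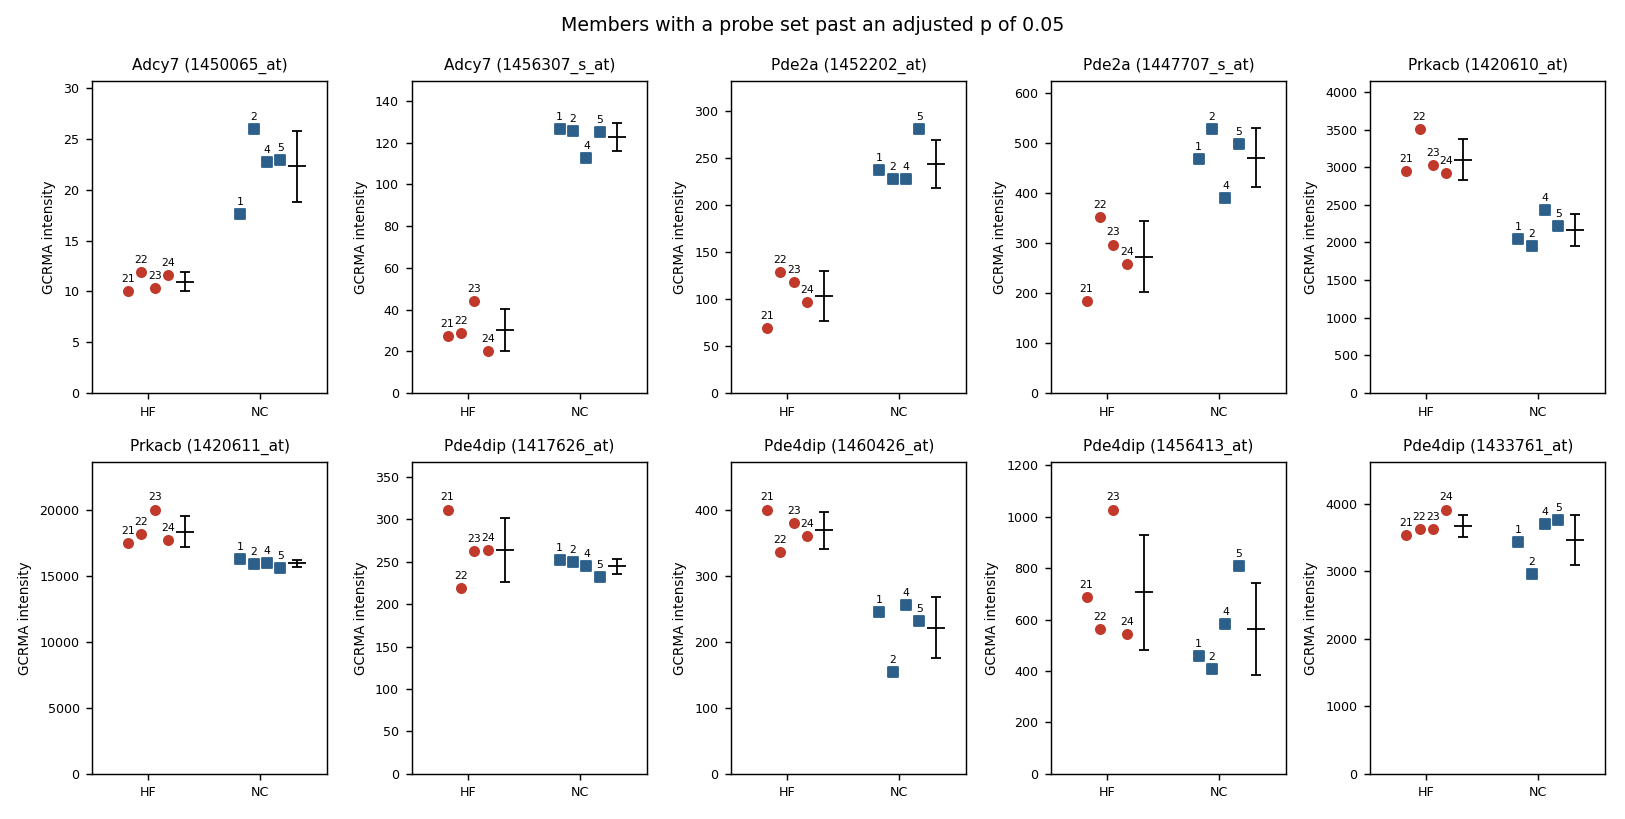
GCRMA intensity (linear axis from 0) of every retained probe set of Adcy7, Pde2a, Prkacb and Pde4dip in the 4 HF samples (red circles) and the 4 NC samples (blue squares), with replicate numbers, and mean ± SD in black. HF lies wholly below NC on both probe sets of Adcy7 and of Pde2a and wholly above it on both of Prkacb, while among the 4 probe sets of Pde4dip the groups are apart on 1.

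Adcy7 had the largest difference among the 76 retained probe sets. This cyclase is known for its high expression in blood cells and for its response to G protein βγ subunits together with Gs. On the probe set 1456307_s_at its intensity was 27.3, 28.8, 43.9 and 20.3 in HF samples, against 126.7, 125.6, 112.5 and 125.3 in NC samples. The highest HF sample, replicate 23, lay far below every NC sample. The mean was 30.1 ± 9.94 in HF and 122.5 ± 6.72 in NC (SD, n = 4 each). On the log2 scale the change was −2.08 (SE 0.21, adjusted p = 0.00178 by limma). The probe set 1450065_at gave 9.99, 11.9, 10.3 and 11.6 in HF samples, against 17.6, 26.01, 22.7 and 22.9 in NC samples. These groups did not overlap either, and the log2 fold change was −1.02 (SE 0.12, adjusted p = 0.00363). The HF values on this probe set were near the filter level of 8.82 and under the sample medians of 13.0 to 13.8. The size of this fall is therefore uncertain. The remaining probe set of the gene, 1420970_at, stayed between 4.74 and 4.92 in all samples and was not retained. Both calls held without any 1 of the 8 samples, with log2 fold changes of −2.28 to −1.91 and of −1.13 to −0.94.

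Pde2a fell as well. Its enzyme hydrolyses both cAMP and cGMP and is stimulated by cGMP, so that it couples the levels of the cyclic nucleotides. On the probe set 1452202_at its intensity was 68.8, 128.9, 118.4 and 97.3 in HF samples, against 237.3, 228.3, 228.4 and 281.7 in NC samples. The NC values were close to one another and all HF values were lower, that of replicate 21 most. This was a log2 fold change of −1.27 (SE 0.19, adjusted p = 0.0081 by limma), and the call held without any 1 sample. On 1447707_s_at the intensity was 183.4, 350.9, 296.7 and 257.7 in HF samples, against 466.8, 528.2, 389.3 and 497.2 in NC samples. The groups were again apart, and HF replicate 21 was again the lowest. This difference was smaller, with a log2 fold change of −0.82 (SE 0.19), and only just passed (adjusted p = 0.0481). Its call was lost without any 1 sample other than HF replicate 22. The adjusted p without HF replicates 21, 23 and 24 was 0.0599, 0.0726 and 0.124, and without NC replicates 1, 2, 4 and 5 it was 0.108, 0.121, 0.0578 and 0.107.

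Markers of several cell types were also lower in HF, while no marker of others was called. The markers were counted by the brightest retained probe set of each gene. The sums below are dominated by the brightest markers of a list and describe the samples only. All 8 measured markers of fibroblasts and stellate cells were called lower, their summed intensity being 2594 to 4642 in HF samples and 13092 to 18816 in NC samples. Of macrophages and monocytes, 4 of 8 markers were lower (sums of 1254 to 1416 in HF and 2468 to 2972 in NC), as were 3 of 5 of B and plasma cells (261 to 850 in HF and 1458 to 2641 in NC). Of smooth muscle cells and pericytes, 4 of 6 were lower (7242 to 8563 in HF and 10761 to 11926 in NC). Of endothelial cells 2 of 11 were lower, and the log2 fold changes of all 11 were below 0, with sums of 13571 to 15349 in HF and 17824 to 20716 in NC. Of Schwann and glial cells 2 of 5 were lower (1234 to 1349 in HF and 1476 to 1673 in NC), and Mbp, not called by its brightest probe set, was lower on 4 of its 7. Besides the fibroblast markers, those called were Ptprc, Csf1r, Cd14 and Lyz2 of macrophages, Ms4a1, Jchain and Ighm of B and plasma cells, Acta2, Tagln, Myh11 and Pdgfrb of smooth muscle, Pecam1 and Tek of endothelium, and Sox10 and Cdh19 of Schwann cells, as seen once the values were known. Not every retained probe set of these genes was called. It was 1 of 3 for Csf1r, 3 of 6 for Ighm, and 1 of 2 each for Col1a1, Pdgfra, Pdgfrb and Ms4a1. Since a measured marker had to pass the filter, none could be below 8.82 in all samples. Some were near that level all the same, such as Cftr (10.1 to 12.9) and Sox9 (10.95 to 12.7) of duct cells. The duct sums given below come nearly all from Krt7 (2819 to 3393). None of 8 β cell markers was called by limma (sums of 263796 to 276569 in HF and 249351 to 255257 in NC), though Ins2 had an unadjusted p under 0.05. These sums did not overlap, HF being higher. All HF samples were above all NC samples for Ins2, Iapp and G6pc2, while the groups overlapped for the other β cell markers. No call was made among 3 α cell markers (169850 to 181550 in HF and 173497 to 176235 in NC, nearly all from Gcg and Ttr), 6 acinar markers (247570 to 286567 in HF and 230137 to 294662 in NC) and 5 duct markers (2854 to 3417 in HF and 2992 to 3469 in NC). Several markers of β, α and acinar cells were very bright, such as Ins2 (67032 to 74310), Gcg (82128 to 88297) and Cela2a (57564 to 71230). Whether probe sets this bright could still show a change was not tested. The α cell marker Irx2 had 60.9 to 112.03 in HF and 122.8 to 178.2 in NC, apart but not called (log2 fold change −0.78, adjusted p = 0.0574 by limma). The duct marker Krt19 was under 8.82 in all HF samples (5.15 to 8.53) and had 10.7 to 40.4 in NC (adjusted p = 0.0534). The 3 δ and PP cell markers were also not called, though Hhex and Ppy had an unadjusted p under 0.05 and the sums did not overlap (77615 to 89157 in HF and 92845 to 94366 in NC). The part of these cell types in the falls of Adcy7 and Pde2a was not tested. In RNA of whole islets, fewer cells of a type and less RNA per cell cannot be told apart.

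Promoters of the called genes Adcy7 and Pde2a, and of Prkacb, which passed the adjusted p but not the fold limit, are shown because PKA acts on transcription through the cAMP response element (CRE), to which CREB binds. The windows are from RefSeq (GRCm38.p6), from 250 bases before to 50 after an annotated start, and each line gives a strand as transcribed, 5′ to 3′. Capitals mark the core of the CRE, TGACG, which reads CGTCA where it lies on the opposite strand. Adcy7 has 3 such windows, Pde2a 5 and Prkacb 3, and the 1 window of each that holds a core is printed. Prkar1a is printed as the only one of the 34 member genes with a window that holds the full site, TGACGTCA, in which a core on each strand overlaps the other.
Adcy7, chr8:88282742-88283041, plus strand: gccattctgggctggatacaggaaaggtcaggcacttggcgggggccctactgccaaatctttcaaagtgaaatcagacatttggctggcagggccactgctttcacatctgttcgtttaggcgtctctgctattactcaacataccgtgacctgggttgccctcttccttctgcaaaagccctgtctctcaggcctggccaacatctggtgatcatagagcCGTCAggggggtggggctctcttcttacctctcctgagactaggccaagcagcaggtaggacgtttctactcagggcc
Pde2a, chr7:101450270-101450569, plus strand: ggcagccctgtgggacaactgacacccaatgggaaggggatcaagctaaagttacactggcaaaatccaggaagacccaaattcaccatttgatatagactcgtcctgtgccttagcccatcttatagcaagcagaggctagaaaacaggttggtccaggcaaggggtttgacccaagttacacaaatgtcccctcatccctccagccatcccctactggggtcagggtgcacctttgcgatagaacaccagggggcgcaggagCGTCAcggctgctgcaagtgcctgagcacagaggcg
Prkacb, chr3:146812897-146813196, minus strand: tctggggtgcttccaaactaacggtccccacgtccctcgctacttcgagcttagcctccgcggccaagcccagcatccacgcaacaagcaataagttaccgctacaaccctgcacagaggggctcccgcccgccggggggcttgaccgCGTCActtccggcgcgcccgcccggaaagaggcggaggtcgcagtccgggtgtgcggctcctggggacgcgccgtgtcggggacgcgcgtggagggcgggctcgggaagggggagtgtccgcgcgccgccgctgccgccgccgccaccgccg
Prkar1a, chr11:109650612-109650911, plus strand: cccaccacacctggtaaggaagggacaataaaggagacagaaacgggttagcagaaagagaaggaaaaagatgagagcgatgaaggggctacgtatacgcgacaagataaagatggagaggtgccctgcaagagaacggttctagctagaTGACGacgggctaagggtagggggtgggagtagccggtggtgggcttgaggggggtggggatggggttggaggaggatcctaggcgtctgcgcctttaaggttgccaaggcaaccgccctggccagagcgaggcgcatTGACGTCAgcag

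There were 72 windows of these 34 genes, some of which overlap, and none for Adcy6, Adcy8, Pde3a, Pde3b, Pde6a, Pde6c, Pde6g, Pde7a, Pde9a and Crem. A core was in 17 (23.6%), beside 20.8% of all 32851 windows of the table. The full site was in 2 (2.78%), beside 1.79% of all windows, and both were overlapping windows of Prkar1a. Pde4dip, the gene with a probe set called higher, had 2 windows and no core in either. Thus a core is in 1 window of each gene that fell and of Prkacb, which was not called, and Prkar1a with the full site was not called (log2 fold changes of 0.03 and −0.07). A core was likewise in a window of Adcy9, Pde4b, Pde6h, Pde8a, Pde8b, Prkaca, Prkar1b, Prkar2a and Rapgef3, none of which was called. It was also in a window of Pde1a and of Pde4a, which had no retained probe set. The shares above are by window, and a gene with several windows is more likely to hold a core. A core was thus found in called and in uncalled genes alike. Whether it goes with a change was not tested, and a match of letters is a description of the window only.

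Among the other cyclases no probe set was called by limma, and 3 of 10 had an unadjusted p under 0.05. Adcy5, inhibited by Gi and by calcium, had an intensity of 23.9, 19.7, 27.1 and 19.7 in HF samples, against 76.7, 43.5, 24.8 and 24.96 in NC samples. NC replicates 1 and 2 were high, and the other NC samples lay within the range of HF. The log2 fold change of −0.76 (SE 0.35) did not pass (adjusted p = 0.27 by limma), and without NC replicate 1 it was −0.42. Adcy6, which is closely related to Adcy5, had a log2 fold change of −0.02 with a 95% confidence interval of −0.25 to 0.21. Adcy9, a widely expressed cyclase, had log2 fold changes of 0.08, 0.08, 0.21 and 0.11 on its 4 probe sets, and all 4 intervals lay within 1.5-fold. On its probe set 1418586_at all HF samples (1621 to 1865) were above all NC samples (1407 to 1586), with an adjusted p of 0.124. Adcy3, Adcy4 and Adcy2 had log2 fold changes between −0.41 and −0.10, and none passed. For Adcy3 the probe set 1421960_at separated the groups by a narrow margin, with 47.5 to 50.7 in HF and 50.8 to 87.2 in NC.

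Pde3b, inhibited by cGMP and the form through which insulin lowers cAMP in fat cells, differed little. Its intensity was 6279.8, 6115, 6288 and 6265 in HF samples, against 5821, 6142, 6140.1 and 6125 in NC samples. The groups overlapped through HF replicate 22, and the log2 fold change was 0.04 (95% confidence interval −0.06 to 0.15). A change of 1.5-fold therefore lies outside the interval.

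Of the phosphodiesterases specific to cAMP, none of the 15 retained probe sets of 6 genes was called by limma, and 3 had an unadjusted p under 0.05. Pde7b had the smallest. Its intensity was 117.0, 75.2, 73.3 and 100.6 in HF samples, against 104.3, 147.5, 119.6 and 128.6 in NC samples. Only HF replicate 21 exceeded an NC sample. Its log2 fold change of −0.47 was not called (SE 0.17, adjusted p = 0.173 by limma). Pde4b had −0.65 on 1442700_at (adjusted p = 0.179) but −0.04 and −0.10 on its other 2 probe sets. The single retained probe set of Pde4d had 0.09, and that of Pde8b 0.01. Pde8a, whose enzyme resists the general inhibitor IBMX, had 0.21 on 1 probe set and −0.08 on the other. Pde7a had 7 retained probe sets with log2 fold changes between −0.22 and 0.48. In this class 12 of 15 intervals lay within 1.5-fold. Some of these were at low intensities, as for Pde8b (12.7 to 14.4) and for Pde7a on 1438041_at (17.7 to 18.97). Pde1c, activated by calcium and calmodulin, was also not called. On 1426036_a_at, its probe set with the smallest p, it had 11.2, 11.8, 10.7 and 14.04 in HF samples, against 11.5, 11.2, 11.4 and 10.8 in NC samples. HF surrounded NC, and the log2 fold change was 0.08 (SE 0.09, adjusted p = 0.659). Its brightest probe set, 1440374_at, had 187.3 to 514.1 in HF and 327.5 to 406.7 in NC. There the log2 fold change was −0.21 with a 95% confidence interval of −0.89 to 0.46, so that a 1.5-fold fall lies inside it. On 1436251_at it was 0.09.

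Pde5a and Pde10a varied widely between samples of the same diet, with an SD within groups of 0.51 to 0.78 and of 0.37 to 0.74 on the log2 scale over their probe sets. Pde5a, specific for cGMP and the target of sildenafil, had on 1460118_at 719.9, 1969, 2153 and 1008 in HF samples, against 392.5, 848.5, 1145 and 1351 in NC samples. HF replicates 22 and 23 were highest and NC replicate 1 was lowest, as on the 2 other probe sets of the gene, where NC replicate 1 and HF replicate 21 had the lowest values in their groups. The log2 fold changes were 0.64, 0.41 and 0.26, with standard errors of 0.48, 0.34 and 0.31 and adjusted p of 0.508, 0.563 and 0.711. The first of these ranged from 0.27 (without NC replicate 1) to 0.94 over the alternatives and was 0.41 without HF replicate 23. No alternative gave a call. Pde10a, which hydrolyses both cAMP and cGMP, had on 1419389_at 87.1, 75.0, 155.4 and 75.7 in HF samples, against 93.3, 74.4, 73.8 and 77.2 in NC samples. HF replicate 23 was the highest sample on all 3 of its probe sets, and the log2 fold changes were 0.33, 0.24 and −0.07 (adjusted p of 0.752, 0.626 and 0.92). The interval of the first ran from −0.70 to 1.37, so that changes of 1.5-fold both up and down lie inside it. Pde6h, the small subunit of the cone photoreceptor enzyme, had a log2 fold change of 0.0036 with an interval of −0.10 to 0.10. Its intensity was only 17.4 to 18.3 in all samples, beside sample medians of 13.0 to 13.8. At such low intensities a narrow interval does not show that a steady transcript was measured.

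**Figure D2:**
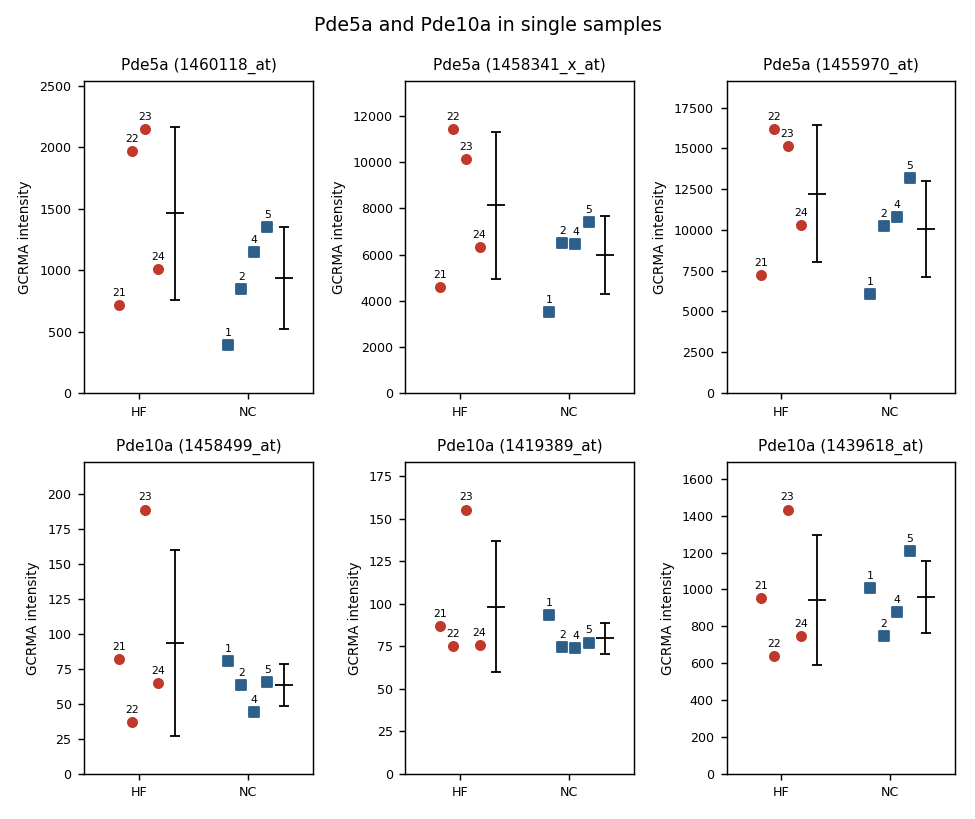
GCRMA intensity (linear axis from 0) of the 3 retained probe sets of Pde5a and the 3 of Pde10a in the 4 HF samples (red circles) and the 4 NC samples (blue squares), with replicate numbers, and mean ± SD in black. The same samples stand out on every probe set of a gene, HF replicates 22 and 23 for Pde5a and HF replicate 23 for Pde10a, and the groups overlap on all 6.

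Over the family, 12 retained probe sets (15.8%) had an SD within groups above 0.34 on the log2 scale, the level that 10% of all retained probe sets exceed. They belonged to 8 genes, Adcy5, Pde1c, Pde4b, Pde7a, Pde10a, Pde5a, Pde4dip and Prkaca. Thus for these probe sets only larger differences between diets could have passed.

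The genes Pde12, Pde6d and Pde4dip carry the letters Pde without encoding cyclic nucleotide phosphodiesterases. Pde12 acts on oligoadenylates and poly(A) in mitochondria and had log2 fold changes of 0.03, 0.22 and 0.15 on 3 probe sets. Pde6d, a carrier of prenylated proteins, had −0.01 (95% confidence interval −0.16 to 0.14). Pde4dip (myomegalin) binds Pde4d and lies at the Golgi apparatus and the centrosome. On 1460426_at its intensity was 401.4, 336.3, 380.8 and 360.9 in HF samples, against 246.0, 154.0, 256.7 and 231.9 in NC samples. All HF samples were above all NC samples, and NC replicate 2 was the lowest. This gave a log2 fold change of 0.76 (SE 0.16, adjusted p = 0.031 by limma). On its other 3 probe sets the groups overlapped and the log2 fold changes were 0.10, 0.33 and 0.09, with adjusted p of 0.645, 0.554 and 0.607. The call was lost without HF replicates 21, 22, 23 and 24 (adjusted p of 0.0889, 0.0533, 0.069 and 0.0828) and without NC replicates 1 and 5 (0.055 and 0.0603), and it held without NC replicates 2 and 4 (0.012 and 0.0363).

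In PKA, the catalytic subunit Prkacb was higher in HF by less than the fold limit. On 1420610_at its intensity was 2949, 3512, 3028 and 2918 in HF samples, against 2049, 1951, 2433 and 2213 in NC samples. Every HF sample was above every NC sample. The log2 fold change was 0.52 (SE 0.09), a fold of 1.44 with a 95% confidence interval of 1.24 to 1.66, and the adjusted p was 0.0152 by limma. Without any 1 sample the adjusted p stayed between 0.0135 and 0.049. On 1420611_at the groups were apart too, with 17543, 18203, 20074 and 17775 in HF samples, against 16339.8, 15938, 15976 and 15667 in NC samples. There the log2 fold change was 0.20 (SE 0.06, adjusted p = 0.0848).

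Prkaca, the other catalytic subunit, was not called on either probe set. On 1447720_x_at it had 5518, 5802, 5313 and 6093 in HF samples, against 6060.3, 5767, 5605 and 5894 in NC samples, and the groups overlapped. The log2 fold change was −0.04 (95% confidence interval −0.18 to 0.10, adjusted p = 0.786 by limma). On 1450519_a_at it had 988.4, 688.9, 1393 and 929.5 in HF samples, against 1251, 1125, 797.0 and 954.0 in NC samples. HF replicates 22 and 23 were the extremes of all 8, and the log2 fold change of −0.07 had a wide interval of −0.58 to 0.44.

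The 4 regulatory subunits, which hold the kinase inactive, were measured by 13 probe sets, of which none was called by limma and 2 had an unadjusted p under 0.05. All 13 intervals lay within 1.5-fold, and 11 of the log2 fold changes were below 0, from −0.29 to 0.11 in all. Prkar2b, a type II subunit, had the smallest p. On 1438664_at its intensity was 1542, 1469.7, 1688 and 1509.95 in HF samples, against 1754, 1741, 2025 and 2063 in NC samples. The groups did not overlap, and the log2 fold change was −0.29 (SE 0.08, adjusted p = 0.0793 by limma), while its other 2 probe sets had −0.13 and −0.09. Prkar1b had 5 probe sets between −0.21 and −0.03, Prkar2a had −0.04, 0.11 and −0.12, and Prkar1a had 0.03 and −0.07.

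Downstream of cAMP apart from PKA, Rapgef3 had a lower intensity in HF that did not pass. On 1424470_a_at it was 18.3, 17.997, 17.7 and 15.6 in HF samples, against 20.95, 28.2, 21.2 and 28.1 in NC samples. The groups were apart, and the log2 fold change was −0.49 (SE 0.12, adjusted p = 0.0558 by limma). On 1424471_at, where the groups overlapped, it was −0.18 (adjusted p = 0.236). The transcription factors were not called on any of 9 probe sets by limma, nor did any have an unadjusted p under 0.05. For Creb1, 1428755_at had 1267, 973, 1068 and 1264 in HF samples, against 1429.7, 1266, 1448 and 1137 in NC samples. HF replicates 22 and 23 were lowest, and the log2 fold change was −0.21 (SE 0.12, adjusted p = 0.36). The other 4 probe sets of Creb1 lay between −0.13 and 0.04. The 4 of Crem, which encodes activators and the inducible repressor ICER, lay between −0.16 and 0.18. The −0.16 was on 1430847_a_at, at only 7.17 to 10.9 with 4 samples under 8.82, and 1430598_at was also dim (10.3 to 11.2). On both bright probe sets of Crem, HF replicate 23 was the lowest sample (142 and 488) and HF replicate 22 the highest (277 and 824).

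**Figure D3:**
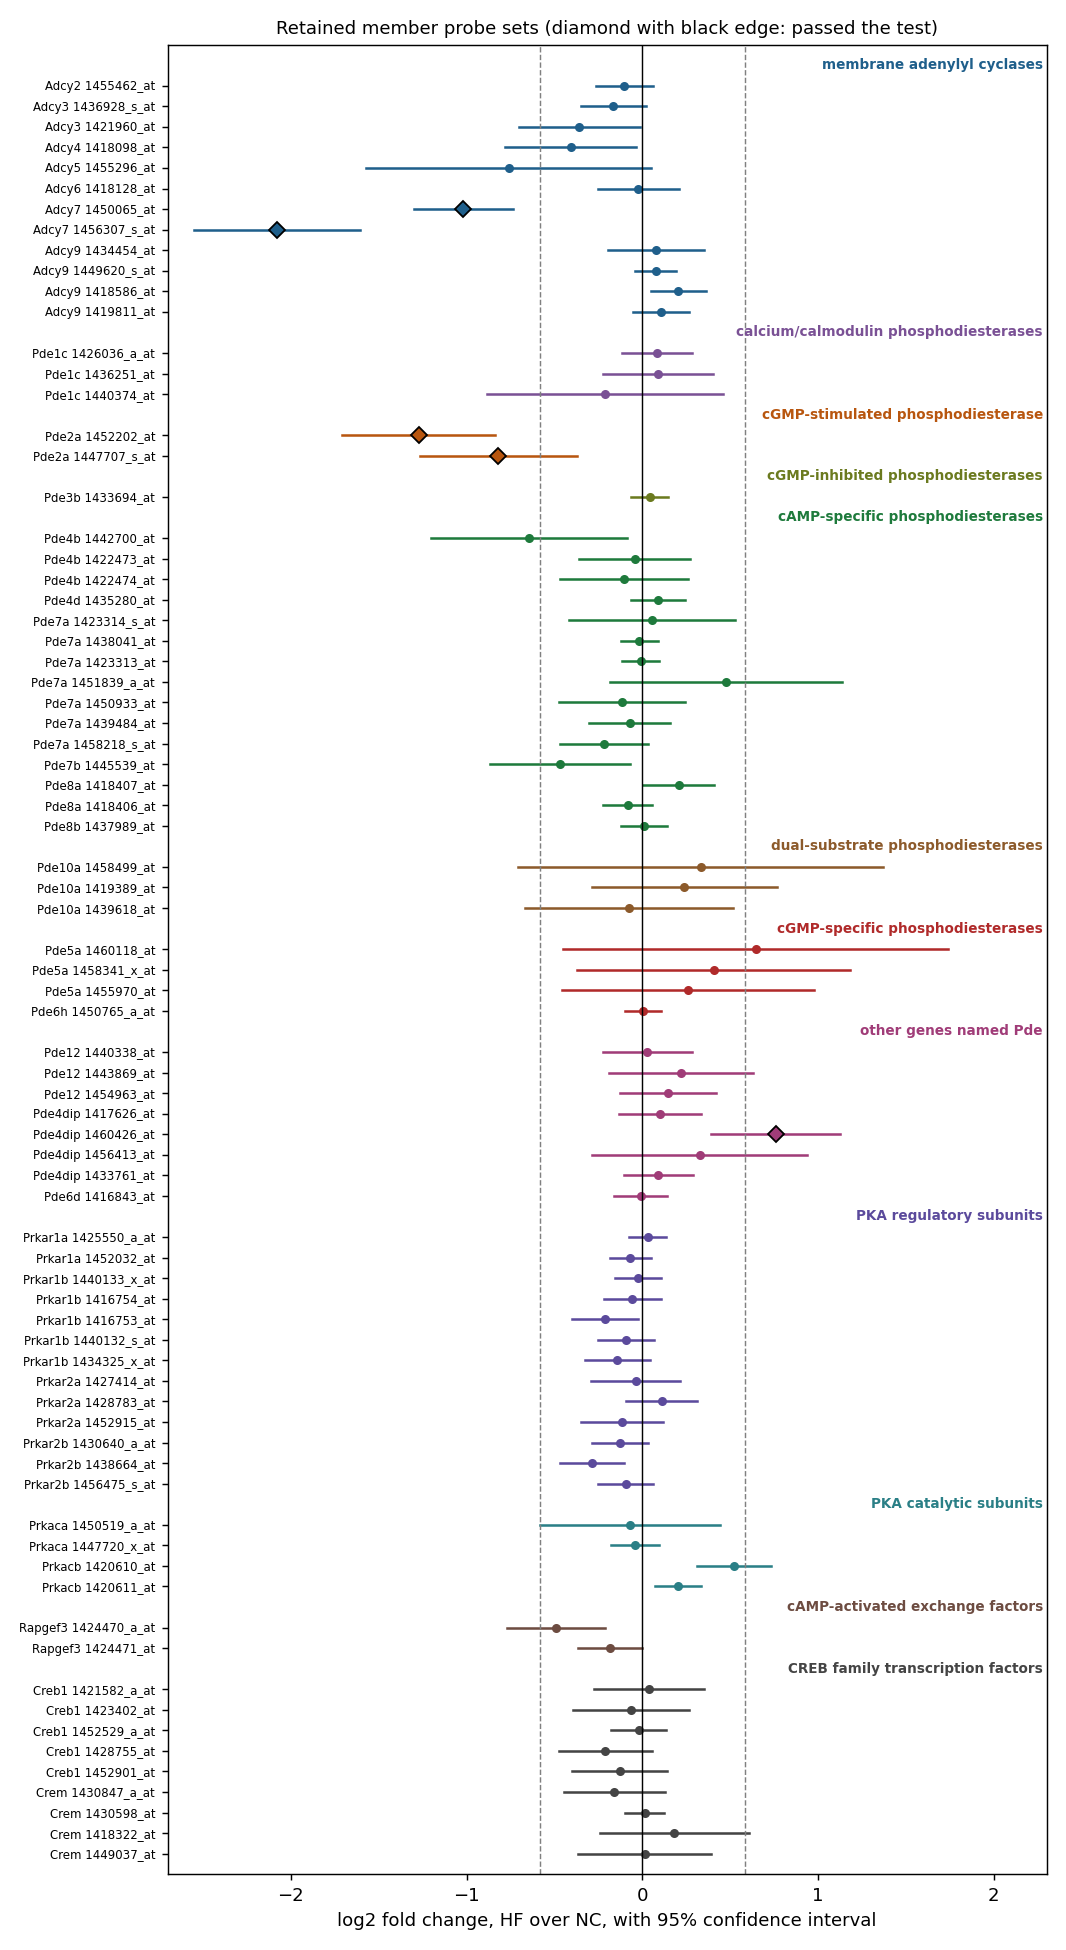
Log2 fold change of HF over NC with its 95% confidence interval for the 76 retained member probe sets, grouped by role, the dashed lines marking 1.5-fold. Only the 4 probe sets of Adcy7 and Pde2a (lower in HF) and 1 of Pde4dip (higher in HF) passed, drawn as diamonds with a black edge, and 53 intervals lie wholly between the dashed lines.

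Regardless of fold, 2 members were higher (Prkacb and Pde4dip, 1 probe set each) and 4 lower at an adjusted p under 0.05, beside 2.03% and 4.13% of all retained probe sets. All 4 HF samples were above all 4 NC samples on 5 of the 76 member probe sets and below them on 7, beside 6.81% and 7.84% of all. For such a probe set the exact two-sided permutation test over the 70 arrangements of the samples gives 0.0286, the smallest p that 4 against 4 allow. At an unadjusted p under 0.05 by limma there were 17. The same share was not taken over all retained probe sets, so this count is description only. Of the 76 intervals 53 (69.7%) lay within 1.5-fold, beside 77.3% of all retained probe sets. They include probe sets at low intensity, such as those of Pde6h and Pde8b, whose narrow intervals do not show a steady transcript.

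The genes around the family were read from 7 lists with 62 genes, of which 50 were measured. By the brightest probe set, 2 (4%) were called higher, 4 (8%) lower and 44 neither, beside 0.447% and 4.28% of all genes measured. The lists were chosen with earlier results of these data known. The 2 called higher, Akap6 and Ppargc1a, had already been reported by the study from these arrays. These shares are therefore description only. Among the G protein α subunits, Gnai1, which inhibits some cyclases, fell on 2 of its 3 retained probe sets. On the brightest it had 1281, 1413, 1345 and 1194 in HF samples, against 1897, 2505, 2034 and 2111 in NC samples, and the groups were far apart. The log2 fold change was −0.70 (SE 0.10, adjusted p = 0.00568 by limma). Gnai2 was lower by −0.39 (adjusted p = 0.0222), under the fold limit. Gnas, which encodes the stimulatory subunit, had −0.02 with an interval of −0.12 to 0.08.

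None of 5 measured Gs-coupled receptors was called by limma, and 2 (Glp1r and Adcyap1r1) had an unadjusted p under 0.05. Glp1r, the receptor of GLP-1, had 1833, 1389, 1773 and 1818 in HF samples, against 1563, 1249.97, 1326 and 1300.5 in NC samples, with overlap through HF replicate 22. It differed by 0.32 on the log2 scale (SE 0.11, adjusted p = 0.144). Gipr had 0.03 and Gcgr 0.13, and the PACAP receptor gene Adcyap1r1 was not called (adjusted p = 0.104). It had 8.01, 9.23, 7.35 and 5.27 in HF samples, against 44.8, 25.5, 15.99 and 9.19 in NC samples, so that it was retained through NC and 3 of its HF values lay under 8.82. Of 4 measured Gi-coupled receptors the somatostatin receptor Sstr2 fell. It had 51.2, 46.3, 51.7 and 34.5 in HF samples, against 77.4, 125.2, 92.4 and 139.2 in NC samples. All HF samples were lower, and the log2 fold change was −1.22 (SE 0.21, adjusted p = 0.0147). Sstr3, with −0.21, did not pass (adjusted p = 0.206).

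The A-kinase anchoring proteins tether PKA near its substrates, and of 11 measured 1 rose and 2 fell. Akap6, the anchor of the nuclear envelope in muscle, had 212.5, 208.2, 227.3 and 230.5 in HF samples, against 138.7, 110.8, 119.8 and 117.4 in NC samples. Both groups were tight and well apart, and the log2 fold change was 0.86 (SE 0.08, adjusted p = 0.00146 by limma). Akap12, a scaffold known from fibroblasts and vessels, had 77.5, 113.9, 101.1 and 68.8 in HF samples, against 281.5, 208.7, 145.5 and 233.9 in NC samples. Its log2 fold change was −1.26 (SE 0.23, adjusted p = 0.0185), with every HF sample below every NC sample. Akap2 had 219.6, 297.1, 258.03 and 264.1 in HF samples, against 429.2, 389.5, 436.5 and 338.8 in NC samples. It did not overlap either, and its log2 fold change was −0.62 (SE 0.11, adjusted p = 0.019). The part of the fibroblast, vessel and blood cell markers given above in the falls of Gnai1, Sstr2, Akap2 and Akap12 was not tested. None of the 3 PKA inhibitor peptides and none of the 8 CREB coactivators and salt-inducible kinases was called, and Pkig, Crtc3 and Sik1 had an unadjusted p under 0.05 by limma.

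Of 12 measured genes that respond to cAMP and CREB in other settings, Ppargc1a, a transcriptional coactivator of mitochondrial genes, was the only 1 called. It had 193.7, 321.8, 190.9 and 225.2 in HF samples, against 135.1, 73.5, 125.3 and 128.1 in NC samples. The groups did not overlap, the log2 fold change was 1.02 (SE 0.24, adjusted p = 0.0448 by limma), and all 5 of its retained probe sets were called higher. The study had reported this rise from the same arrays and also found it by rtPCR, so it is no independent result. Of the other 11, Dusp1 (−0.43, adjusted p = 0.069), Nr4a3 (−1.46, 0.0914) and Irs2 (−0.37, 0.162) had the smallest p. The median of the 12 was −0.38, with 9 below 0, beside a median of 0.02 over all retained probe sets. The list as a whole was not tested, and these values are description only.

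**Figure D4:**
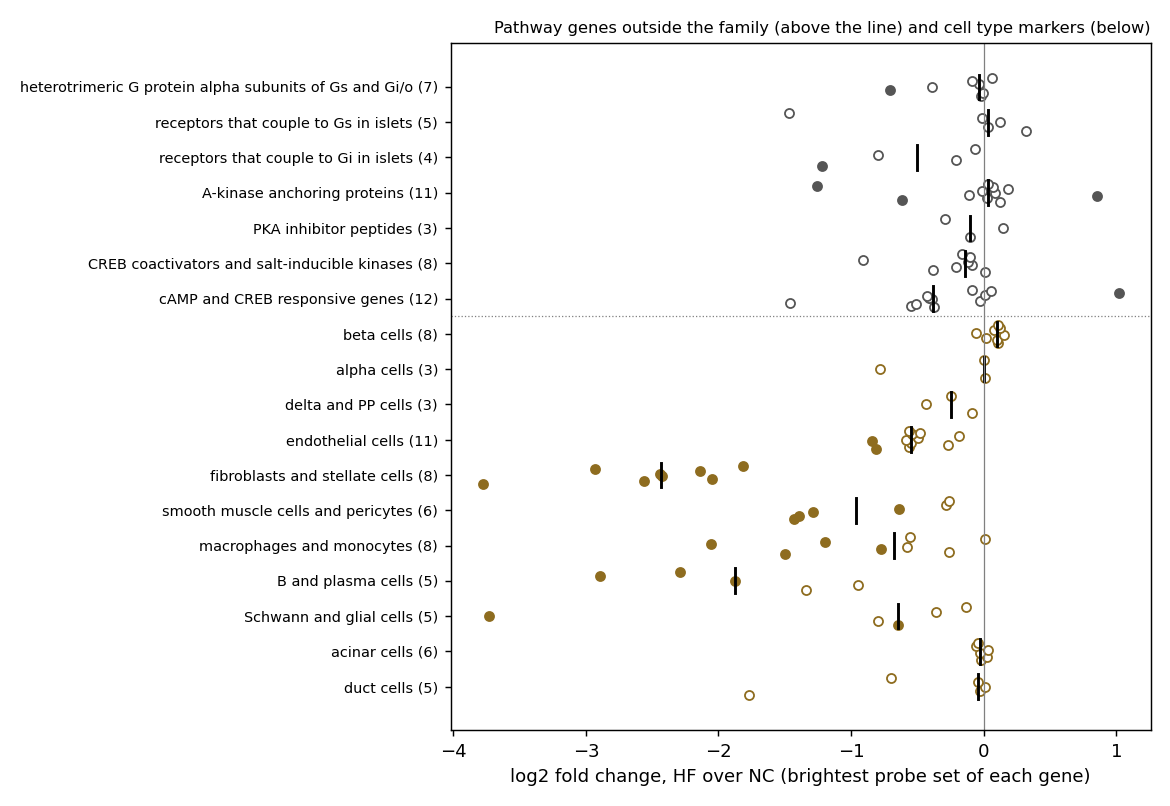
Log2 fold change of HF over NC for each measured gene (brightest retained probe set) of the 7 pathway lists and the 11 cell type lists, with the number measured in parentheses. Filled circles were called and open circles were not, and black bars are medians, which lie at −2.43 for fibroblast and stellate cell markers, −0.55 for endothelial markers and 0.10 for β cell markers.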

How the data were processed

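Probe sets were summarised by the authors with GCRMA (ArrayAssist Lite 3.4), a background correction followed by normalization between arrays. What they deposited are intensities, linear as judged from their range, and the sample medians lay between 13.0 and 13.8. Here log2 of the intensity was used without further scaling, and precision is limited by the 4 arrays per diet. Scan and hybridisation batches are not given in the sources used here.

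Of 45101 probe sets, 34958 were annotated to 1 gene, 932 to several and 9211 to none named here. GEO's platform annotation, which can be old, gave the names. Present flags were not used. The diets were compared with limma 3.58.1 under R 4.3.3 (lmFit, then eBayes), and the fit was tested on simulated data. SAM, which the methods name, was not run. p-values measure the spread between pools of 2 mice.

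The members, the gene lists and the tests were chosen with earlier results of these data known, and Adcy7, Pde2a and Akap6 also stand in lists that the study drew from these samples. Ppargc1a too was reported by the study as higher in HF on these arrays. Values in each sample are given for every gene with a called probe set, for Adcy5, Pde3b and Prkaca, and for the gene with the smallest p in each role without a call. From the pathway lists, called genes and at most 4 per list by smallest p are named, and Gnas, Gcgr, Gipr and Sstr3 stand beside them for their roles. As alternatives the filter was dropped or made stricter, the samples were scaled in 3 other ways, and a robust prior with an intensity trend, weights for samples and the methods' t-test with adjustment were tried. Low intensities were raised to a floor, folds taken from linear means, thresholds and the choice of probe set varied, and single samples left out.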

Additional observations from a re-analysis of the deposited data

Results flagged for a closer look

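In 152 groups of 4 samples (76 probe sets, 2 diets), 12 values (7.89%) stood apart from the other samples of their diet by Dixon's test at the 95% level, and chance flags about 1 in 20 groups. Among HF samples, replicate 23 was high for Adcy6 (734.1, the others 547.4 to 571.1) and low for Creb1 on 1423402_at (67.2, the others 88.1 to 89.9), for Crem on 1449037_at (488.4, the others 761.8 to 824.4) and for Pde7a on 1423313_at (18.9, the others 19.9 to 20.03). Replicate 22 was low for Pde4d (239.1, the others 278.2 to 282.6) and for Pde3b (6115, the others 6265 to 6288), and replicate 24 was low for Adcy2 (12.5, the others 14.3 to 14.5).

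Among NC samples, replicate 1 was low for Pde3b (5821, the others 6125 to 6142) and high for Prkar2a on 1427414_at (171.5, the others 123.5 to 128.4) and for Pde7a on 1438041_at (19.0, the others 17.9 to 18.04). Replicate 4 was high for Adcy2 (16.3, the others 14.5 to 14.6) and low for Adcy7 on 1456307_s_at (112.5, the others 125.3 to 126.7), where every HF sample was still lower.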

How the results depend on the processing

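For 17 named probe sets, 305 values under alternatives were computed, of which 282 kept their direction and their side of the threshold, 19 lost the call and 4 changed sign. Adcy7 on both probe sets and Pde2a on 1452202_at passed under all 18 alternatives each, and Prkacb on 1420610_at kept an adjusted p of 0.00996 to 0.049. Pde2a on 1447707_s_at lost its call under 11 of 18 and Pde4dip on 1460426_at under 8 of 18. The signs that changed were of differences not called, namely Pde3b with samples centred on β cell markers (−0.0357), Pde10a on 1419389_at without HF replicate 23 (−0.0047, all single samples left out −0.0047 to 0.346), and Prkaca on 1450519_a_at without HF replicate 22 (0.0943) and without NC replicate 1 (0.0298, all single samples left out −0.244 to 0.0943).

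The count of members called higher was 0 in place of 1 with no filter, with the methods' t-test and at an adjusted p under 0.01, and 2 with no fold limit. Genes called lower by the brightest probe set were 1 in place of 2 with no filter, with quantile normalization again, with samples centred on their medians, with the methods' t-test and at an adjusted p under 0.01. Genes called higher were 1 in place of 0 when any probe set counted. Leaving out single samples gave 0 to 1 members and 0 genes higher, 3 to 4 members lower and 1 to 2 genes lower. No paired analysis was possible because the diets share no replicate numbers. The causes of these changes were not tested. With 4 pools per diet, the wide intervals of Pde5a, Pde10a and Adcy5 limit what could be detected for them.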
